A study of Drosophila melanogaster with 2 samples.

Results

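The 30 genes described here drive the cell division cycle and the copying of DNA in Drosophila melanogaster, and they were taken by name from 14001 genes quantified in larvae of the third instar. By role they are 13 genes of the replication machinery, 8 regulators of entry into S phase and 9 genes that act in mitosis. All listed transcripts of each gene were summed, 61 transcripts in all. The larvae were homozygous for f04929, an allele of HP1c, which encodes a chromodomain protein of the heterochromatin protein 1 family. They were raised at one temperature on one food, and whole animals served as the tissue. The 2 libraries form a single group, replicates 1 and 2. The series was designed around a pair of genotypes, and the other one was not analysed here, so no effect of the allele was computed. HP1c itself stood at 0.842 TPM in replicate 1 and 1.08 TPM in replicate 2, from 25 and 42 reads, which without a control checks no label. TPM is a scale of transcript abundance that is corrected for transcript length and sums to the same total in every library, so levels of different genes can be set side by side.

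In each S phase the origin recognition complex and the licensing factor encoded by dup load the MCM helicase onto DNA, and PCNA then clamps the polymerases to the template. Cyclin and kinase pairs time these steps, together with the E2F factors. Cyclin D with Cdk4 and Cyclin E with Cdk2 open S phase, while Cyclins A, B and B3 with Cdk1 bring on mitosis. Larvae grow largely by endocycles, rounds of DNA synthesis without division, in tissues such as the salivary gland, fat body and gut. Imaginal discs, neuroblasts and germ cells go on dividing. Replication genes thus serve both kinds of tissue, and mitotic genes the dividing cells. In RNA of whole larvae, fewer cells of a type and less RNA per cell cannot be told apart.

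Replicate 1 held 39745145 estimated reads and replicate 2 held 45177298. Entries for rRNA took 12.1% of the reads of replicate 1 and 2.55% of those of replicate 2. The biological coefficient of variation over genes averaging 10 reads or more was 25.2%. The files did not hold one library in duplicate, with a chi-square statistic of 382 per degree of freedom over genes. The labels do not say whether the libraries came from separate cultures. With 1 group no test between groups exists, and each SD is over n = 2. Intervals are at the 95% level and cover counting error only.

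All 30 genes reached 1 TPM in both libraries, as did 77.9% of all genes, and the sparsest count behind any of them was 101 reads. Their levels ran from 2.01 ± 0.171 TPM for Orc1 to 58.7 ± 9.10 TPM for PCNA. In replicates 1 and 2 the median gene at 1 TPM or more stood at 13.2 and 12.8 TPM, and 18 of the 30 lay above the midpoint of such genes. The 5 most abundant were PCNA, E2f1, Dp, polo and RnrS, which come from all 3 roles. The lowest places were held by the 4 origin recognition genes, with the kinase gene aurA next above them. Of the 29 pairs of neighbours in this order, 19 had values that did not overlap between the libraries and 10 did overlap. The neighbours with overlapping values included E2f1 and Dp, E2f2 and stg, Cdk2 and Mcm7, and CycE and Mcm3. Counting error was left out of this comparison, so values that did not overlap do not by themselves settle an order. For example, aurB and E2f2 counted as apart on 22.04 TPM in replicate 1 against 22.02 TPM in replicate 2.

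**Figure D1:**
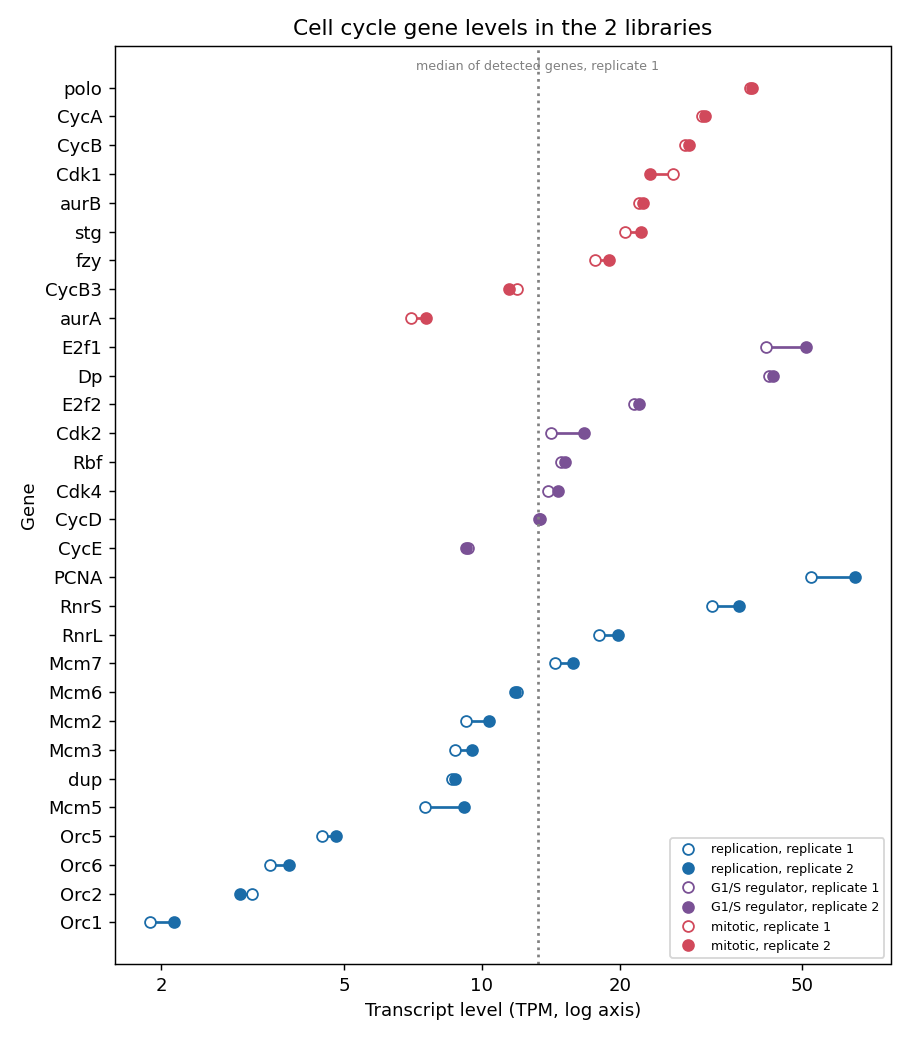
Level of each gene in TPM (log axis) in replicate 1 (open points) and replicate 2 (filled points), grouped by role. The dotted line is the median of genes at 1 TPM or more in replicate 1, 13.2 TPM. Mitotic genes lie mostly to its right, origin recognition genes far to its left, and PCNA at 52.3 and 65.2 TPM is the most abundant of all.

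Among the replication genes, levels stepped down from the clamp and nucleotide supply to the helicase and then to the origin complex. PCNA (FBgn0005655; BDGP6 2R, 20261754 to 20262883, minus strand) encodes the sliding clamp and stood at 52.3 TPM in replicate 1 and 65.2 TPM in replicate 2. RnrS and RnrL encode the small and large subunits of ribonucleotide reductase, which makes deoxynucleotides. RnrS stood at 31.8 and 36.3 TPM in replicates 1 and 2. RnrL stood at 18.0 and 19.8 TPM. Within a library the small subunit came to 1.76 and 1.83 times the large one, an excess larger than the difference between the libraries.

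The 5 MCM helicase genes kept within a 1.82-fold range of each other. Mcm7 was the most abundant at 14.5 and 15.8 TPM, followed by Mcm6 at 11.9 and 11.8 TPM. Mcm2 stood at 9.24 and 10.4 TPM, Mcm3 at 8.76 and 9.54 TPM and Mcm5 (3R, 10788524 to 10791150) at 7.53 and 9.15 TPM. The remaining subunit gene of the hexamer, dpa, is listed under its own name and stood at 12.2 and 13.7 TPM, inside the range of the others. The loading factor gene dup, the fly Cdt1, was close to the lower subunits at 8.59 and 8.73 TPM. Its inhibitor geminin stood at 40.9 and 48.1 TPM, so that dup came to 0.210 and 0.182 of it.

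Transcripts of the origin recognition complex were scarcer than those of the helicase it loads. Orc5 stood at 4.48 and 4.81 TPM, Orc6 at 3.46 and 3.80 TPM and Orc2 at 3.15 and 2.98 TPM. Orc1 (2R, 7522437 to 7525716) encodes the large ATPase subunit and was the least abundant at 1.89 and 2.13 TPM, from 201 and 300 reads. None of the 4 overlapped any MCM gene in level. With Orc3 at 6.03 and 6.87 TPM and Orc4 at 6.93 and 7.31 TPM included, the median of the complete MCM set was 2.67 and 2.58 times that of the complete origin set. Within the origin complex the levels spanned 3.54-fold, against 1.82-fold within the helicase. The recruiting factor Cdc6 stood at 3.85 and 4.59 TPM, in the range of the origin genes.

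The regulators of S phase entry were led by the subunits of the activating E2F dimer. E2f1 (FBgn0011766; 3R, 21620304 to 21660871, minus strand) encodes the activator and stood at 41.7 and 50.9 TPM in replicates 1 and 2. Dp, its obligate partner, stood at 42.3 and 43.1 TPM. The ratio of E2f1 to Dp was 0.985 in replicate 1 and 1.18 in replicate 2, so which is the more abundant depends on the library. E2f2, the repressor of the family, stood at 21.4 and 22.0 TPM, and E2f1 exceeded it 1.94-fold and 2.31-fold. Rbf, the retinoblastoma protein that restrains E2F, was lower at 14.9 and 15.2 TPM. E2f1 exceeded it 2.80-fold and 3.36-fold.

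The G1 cyclin and kinase genes were moderate and close together. CycD stood at 13.4 and 13.3 TPM and its kinase gene Cdk4 at 13.9 and 14.6 TPM, a ratio of 0.938 ± 0.0375. CycE (2L, 15727581 to 15748150) stood at 9.32 and 9.24 TPM and its kinase gene Cdk2 at 14.2 and 16.7 TPM. Transcripts of Cyclin E were therefore fewer than those of its kinase in both libraries, at 0.657 and 0.553 of the Cdk2 level. They were also fewer than those of dap, which encodes the inhibitor of Cyclin E and Cdk2, at 0.663 and 0.613 of its 14.0 and 15.1 TPM.

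The mitotic genes had a median coefficient of variation between the libraries of 3.14%, against 6.71% for replication genes and 1.58% for S phase regulators. These values include counting error, and the replication median is that of Orc6, from 101 and 146 reads. The kinase gene polo, needed for spindle and centrosome function, led at 38.5 and 38.9 TPM. CycA stood at 30.1 and 30.7 TPM and CycB at 27.7 and 28.2 TPM. Their kinase gene Cdk1 (2L, 10384739 to 10386262) stood at 26.1 and 23.3 TPM, so that CycA came to 1.15 and 1.32 times it and CycB to 1.06 and 1.21 times it. Both cyclins exceeded their kinase in level, the reverse of Cyclin E and Cdk2. In replicate 1, however, the counting intervals of CycB and Cdk1 overlapped, at 26.6 to 28.8 and 24.4 to 27.9 TPM. CycB3 was lower than the kinase in both libraries, at 11.9 and 11.4 TPM, or 0.418 ± 0.0188 of CycB.

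The activators of mitotic entry and of anaphase, stg and fzy, were expressed at similar levels. The phosphatase gene stg, the fly Cdc25 that triggers mitosis by activating Cdk1, stood at 20.5 and 22.2 TPM. Its germline relative twe, which acts in meiosis, stood at 5.44 and 6.44 TPM, and stg exceeded it 3.77-fold and 3.45-fold. Of the Aurora kinases, aurB, which encodes the chromosomal passenger kinase, stood at 22.0 and 22.5 TPM. The centrosomal kinase gene aurA stood at 7.02 and 7.56 TPM, so that aurB came to 3.06 ± 0.120 times it. The gene fzy encodes the Cdc20 activator of the anaphase-promoting complex in mitosis and stood at 17.7 and 18.9 TPM. Its counterpart fzr, which keeps that complex active in endocycling cells, stood at 21.9 and 23.5 TPM. The ratio of fzy to fzr was 0.806 in replicate 1 and 0.807 in replicate 2, the closest match between libraries of the 14 gene pairs set side by side.

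Set against each other within a library, the typical mitotic gene was more abundant than the typical replication gene. The median of the 13 replication genes was 8.76 TPM in replicate 1 and 9.54 TPM in replicate 2. The median of the 9 mitotic genes was 22.0 and 22.5 TPM. The ratio of replication to mitotic medians was 0.397 and 0.424 in replicates 1 and 2 (mean 0.411 ± 0.0191, SD, n = 2). By rank among genes at 1 TPM or more, 4 of 13 replication genes lay above the midpoint, against 7 of 8 S phase regulators and 7 of 9 mitotic genes.

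The sums of the roles were nearer to each other than the medians. Replication genes summed to 176 and 200.4 TPM in replicates 1 and 2, S phase regulators to 171 and 185 TPM, and mitotic genes to 202 and 204 TPM. The ratio of replication to mitotic sums was 0.871 and 0.984 (mean 0.927 ± 0.0799). PCNA alone made up 29.8% and 32.5% of the replication sum, and without it the ratio of sums was 0.611 and 0.664. CycA also acts in S phase, and with it left out of the mitotic group the ratio was 1.02 and 1.16, on the other side of 1. The sums therefore do not order the roles, while the medians placed mitotic genes higher under each choice of lists tried.

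None of the 30 genes differed 2-fold between the libraries, where 5.37% of the 12203 genes averaging 10 reads or more did. By direction, 1.28% of those genes were higher in replicate 2 and 4.09% in replicate 1. A gene was counted when its ratio, scaled with TMM factors and with 0.5 reads added, was at least 2 and its counting interval excluded 1. At a 1.5-fold threshold the count was also 0, against 12.2% of all genes. The share of all genes was 1.63% at 4-fold and, among genes averaging 100 reads or more, 3.69% at 2-fold, again with 0 of the 30. No p-value exists in this design, so the count rests on size and counting error alone. The log2 ratio, replicate 2 over replicate 1, had quartiles of -0.19 and 0.19 over all tested genes and a median of 0.02. Of the 30 genes, 7 lay above the upper quartile and 0 below the lower one.

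Most genes of each role stood somewhat higher in replicate 2, and the roles were not tested against each other. Of the 13 replication genes 12 had a log2 ratio above 0, as did 52.8% of all genes, and their median was 0.16. The counting interval lay wholly above 0 for 7 of the 13, as it did for 26.2% of all genes. PCNA had the highest ratio at 0.35 (interval 0.26 to 0.44), a 1.27-fold difference, followed by Mcm5 at 0.31 (0.16 to 0.46) and RnrS at 0.22 (0.13 to 0.31). Mcm6 at 0.02 and dup at 0.08 were level between the libraries within counting error. Orc2 at -0.05 was the one replication gene below 0, with an interval of -0.32 to 0.22, and it lay above 0, at 0.13, when scaled by library size alone. That scaling put the median of all genes at 0.21 and 75.2% of them above 0, so positions relative to other genes were kept.

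Of the 8 S phase regulators, E2f1 at 0.31 (interval 0.26 to 0.36) and Cdk2 at 0.26 (0.10 to 0.41) had intervals above 0. The other 6 lay between -0.00 for CycD and 0.11 for Cdk4, and the median of the 8 was 0.06. The 9 mitotic genes had a median of 0.05, and 7 of the 9 were above 0. The counting interval lay above 0 for 2 of them, stg at 0.15 (0.06 to 0.24) and fzy at 0.13 (0.02 to 0.24), while aurA at 0.14 had an interval of -0.06 to 0.34. Cdk1 went the other way at -0.14 (-0.28 to -0.01), the only one of the 30 with an interval below 0, where 27.4% of all genes had one. Scaled by library size alone Cdk1 stood at 0.043, and its difference from the median of all genes was -0.16 under either scaling. No mitotic gene lay above the upper quartile of all genes, against 5 replication genes and 2 S phase regulators. The gap between the replication and mitotic medians was 0.11 on the log2 scale.

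**Figure D2:**
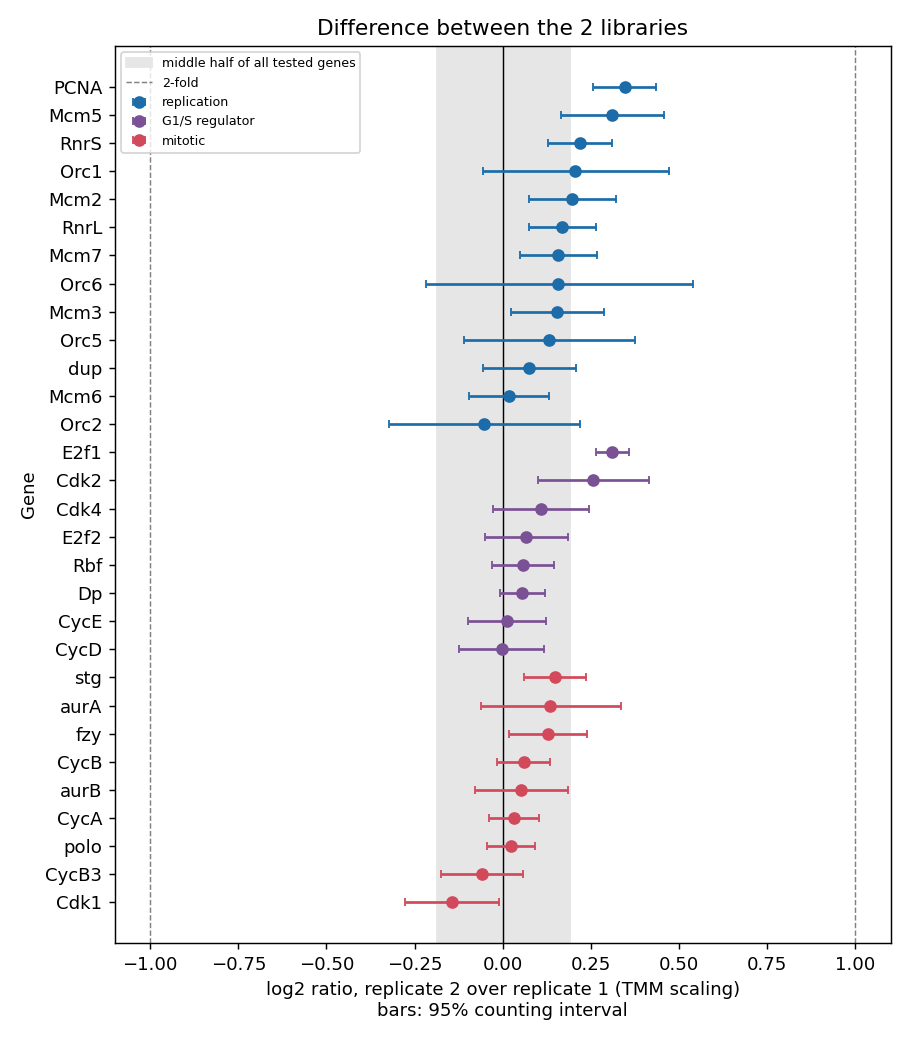
Log2 ratio of replicate 2 over replicate 1 for each gene, with 95% counting intervals, grouped by role; the grey band spans the quartiles of all tested genes (-0.19 to 0.19) and dashed lines mark 2-fold. PCNA, Mcm5 and E2f1 lie to the right of the band, Cdk1 lies lowest at -0.14, and no gene nears 2-fold.

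The libraries also differed in tissue markers, none of which was at 0 reads in either. The 7 salivary gland genes summed to 46207 and 92292 TPM in replicates 1 and 2, of which Sgs7 alone held 29704 and 59128 TPM. At least 2-fold higher in replicate 2 were 3 of the 7, as were 1.28% of all tested genes. One of the 7, ng1, went the other way at a log2 ratio of -0.20 (interval -0.34 to -0.07). The 4 gut enzyme genes summed to 18436 and 26109 TPM, with all 4 above 0 in log2 ratio. The 3 fat body genes summed to 27783 and 24154 TPM, but only Fbp1 at -0.80 had a log2 ratio below 0, and the median of the 3 was 0.03. For dividing tissues, the 8 imaginal disc genes summed to 139 and 128 TPM, the 6 neuroblast genes to 38.4 and 33.6 TPM, and the 7 testis genes to 13.9 and 15.2 TPM. The neuroblast genes went both ways, with 3 of 6 above 0 in log2 ratio and a median of 0.02. Their lowest values were -0.86 for insc and -0.21 for grh. Of the 7 testis genes 4 had a log2 ratio above 0 and 3 below, with a median of 0.23, where 52.8% of all genes were above 0. Only 4 of the 7 reached 1 TPM in both libraries, and twe held 5.44 and 6.44 TPM of the testis sums. All 8 disc genes had a log2 ratio below 0, with a median of -0.11, while 26 of the 30 cell cycle genes had one above 0. Scaled by library size alone, 7 of the 8 disc genes and 30 of the 30 cell cycle genes had one above 0. The part of these tissues, and of the rRNA share, in the cell cycle gene ratios was not tested.

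Gene sums agreed between the libraries better than the estimated transcripts behind them. Of the 30 genes, 15 have a single listed transcript and 15 have several. The most abundant transcript was the same one in both libraries for 13 of these 15 and differed for CycE and Cdk4. For Cdk4 the top transcripts were nearly level in replicate 2, with Cdk4-RC at 45.54% and Cdk4-RA at 45.47% of the gene. Of 55 member transcripts with enough reads, 4 were at least 2-fold apart, where 19.4% of 23627 transcripts were. By direction 3 were higher in replicate 1, as were 10.8% of all transcripts, and 1 in replicate 2, as were 8.64%. Reads that suit several isoforms are shared out by estimation, and counting intervals do not cover that step.

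Of these 4, Mcm3-RB was assigned 102 reads in replicate 1 and 0 in replicate 2. On assigned reads that is at least 44.2-fold higher in replicate 1, against a floor of 3 reads. Its coding sequence of 2454 bases is 1 codon shorter than that of Mcm3-RA, which took 87.3% and 100% of the gene. Cdk4-RE was assigned 131 reads against 0, at least 56.5-fold higher in replicate 1, and its coding sequence is shared with the other Cdk4 transcripts. CycE-RD had 31 and 13 reads, 3.19-fold higher in replicate 1 (interval 1.57 to 6.43). CycB-RE had 16 and 107 reads, 4.91-fold higher in replicate 2 (3.04 to 9.36). All 4 are transcripts other than the leading ones, of genes whose sums differed by less than 1.5-fold.

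Of the 15 genes with several transcripts, 9 encode one coding sequence and 6 encode more than one. Cyclin E is known in forms that differ at the amino terminus. The coding sequence of 2127 bases, from 4 transcripts, took 75.8% of CycE TPM in replicate 1 and 75.9% in replicate 2. The shorter one of 1806 bases, from CycE-RB, took 24.2% and 24.1%. A further one of 2136 bases, from CycE-RF, was assigned 0 reads in both libraries. Inside the 2127-base class CycE-RA fell short of CycE-RC in replicate 2 (31.8% and 42.8%) and exceeded it in replicate 1 (40.2% and 33.1%). Transcripts with the same coding sequence thus traded shares while their total held.

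In 4 of the 6 genes, Mcm3, Dp, CycA and CycB, each transcript has a coding sequence of its own. CycA-RC took 73.6% of CycA TPM in replicate 1 and 59.7% in replicate 2, with CycA-RA, whose coding sequence is 1 codon longer, taking the rest. For E2f1 the transcripts with a coding sequence of 2415 bases took 54.2% and 58.9%, and the 2463-base form took the rest. Dp-RB took 63.3% and 55.9% of Dp. CycB was dominated by one transcript, CycB-RA, with 96.0% and 94.0%, and E2f2 by E2f2-RA with 99.0% and 98.8%. For stg the leading transcript stg-RA held 90.5% and 89.5%, and for polo polo-RB held 83.7% and 89.0%.

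**Figure D3:**
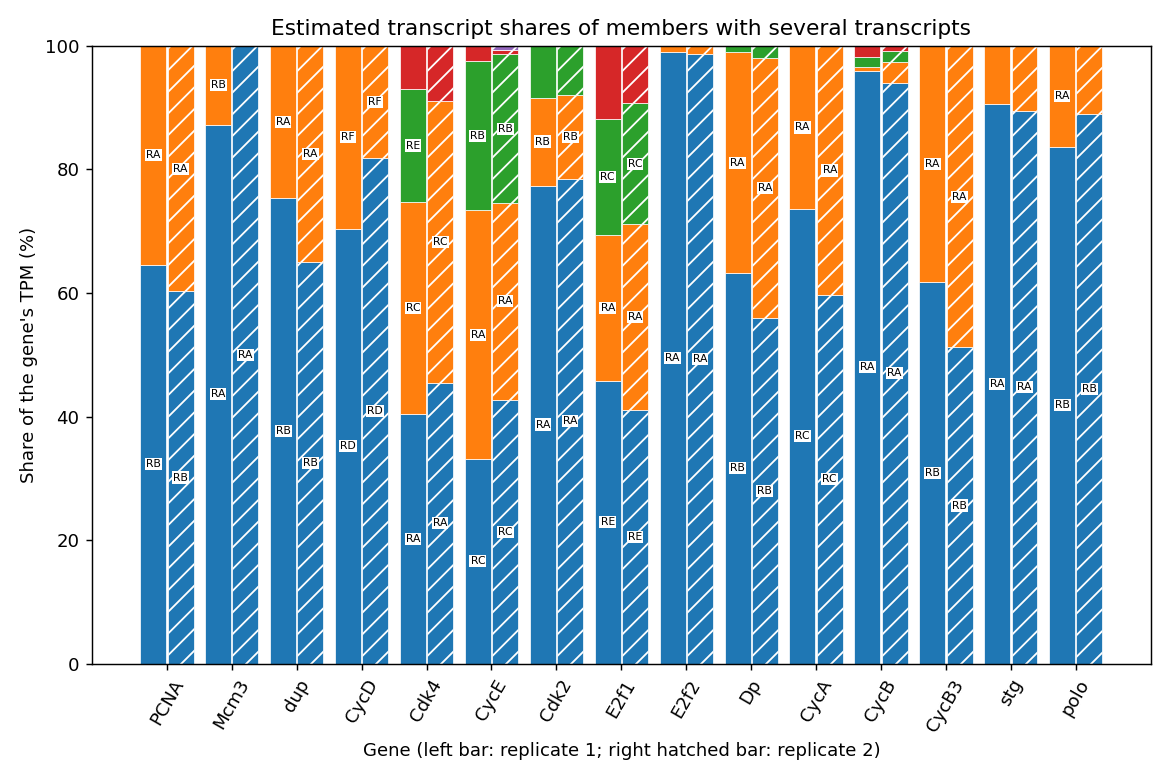
Share of each gene's TPM (%) taken by its transcripts in replicate 1 (plain bars) and replicate 2 (hatched bars), for the 15 genes with several transcripts; letters name the transcript. Leading transcripts keep their place except in CycE and in Cdk4, where the top transcripts are nearly level in replicate 2. Cdk4-RE and Mcm3-RB were assigned reads in replicate 1 alone.

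Wider lists of the same pathways, which hold none of the 30 genes, gave the setting for these levels. Of 39 further replication genes all reached 1 TPM, with medians of 7.03 and 7.80 TPM in replicates 1 and 2. The most abundant were dUTPase, which keeps uracil out of DNA, at 78.1 ± 7.17 TPM and RPA3, a subunit of the single-strand binding complex, at 45.7 ± 2.23 TPM. Of these 39, 30 had a log2 ratio above 0 and 13 an interval above 0, against 52.8% and 26.2% of all genes. An interval below 0 was found for 5 of them, against 27.4% of all genes. The median was 0.13 and none reached 2-fold. RfC4, a clamp loader subunit, had the highest ratio at 0.44 and the origin-firing kinase gene Cdc7 the lowest at -0.42.

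Of 40 further mitosis genes all reached 1 TPM, with medians of 10.7 and 11.0 TPM. The most abundant were endos, an inhibitor of the phosphatase that opposes Cdk1, at 181 ± 7.07 TPM and the microtubule protein gene tacc at 89.5 ± 3.40 TPM. In this list 33 of 40 genes had a log2 ratio above 0, 18 an interval above 0 and 5 an interval below 0. The shares of all genes were 52.8%, 26.2% and 27.4%. The median was 0.10 and none reached 2-fold. The spindle checkpoint gene mad2 had the highest ratio at 0.43 and the centrosome gene cnn the lowest at -0.29. With members and wider lists joined, the ratio of replication to mitotic medians was 0.622 and 0.666 in replicates 1 and 2, still below 1 but nearer to it than with the members alone. The gap between the median log2 ratios of the wider replication and mitosis lists was 0.03, against 0.11 for the members.

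Of 12 genes that switch cells between mitotic cycles and endocycles or check the cycle, 11 reached 1 TPM. The most abundant were geminin at 44.5 ± 5.04 TPM and slmb, which encodes a ubiquitin ligase subunit, at 39.7 ± 8.04 TPM. Their log2 ratios were 0.25 and -0.38, and that of slmb was the lowest of the list. CycJ was below 1 TPM in both libraries, at 0.531 and 0.853 TPM from 25 and 53 reads. It also had the highest log2 ratio of the list, 0.70, with an interval of -0.00 to 1.46.

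**Figure D4:**
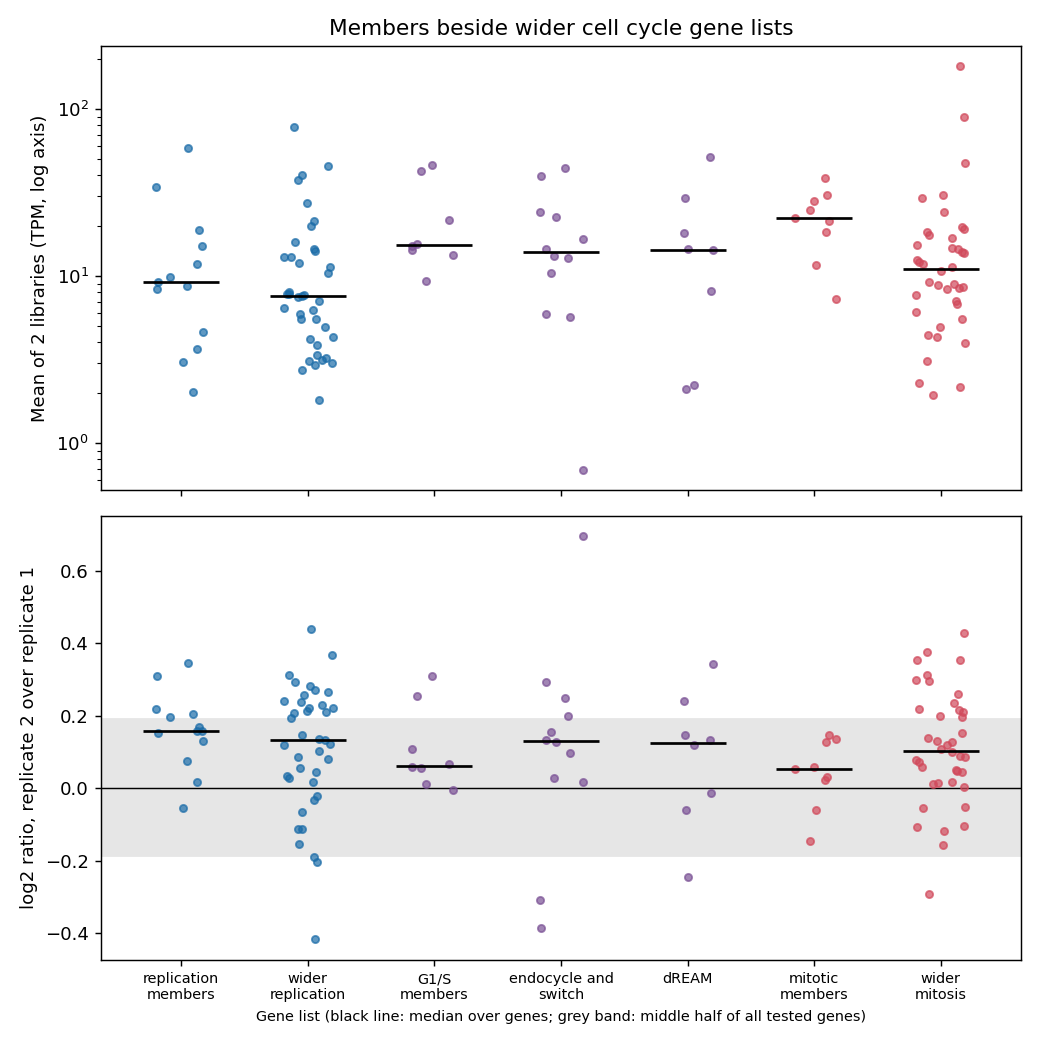
Mean level of each gene in TPM (log axis, top) and log2 ratio of replicate 2 over replicate 1 (bottom) for the member roles and the wider lists; black lines are medians over genes and the grey band spans the quartiles of all tested genes. The median level of mitotic members lies above that of replication members, though single genes overlap, and replication members have the highest median log2 ratio, 0.16.

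The genes lie on all the large chromosome arms, with 7 genes on 2L, 8 genes on 2R, 3 genes on 3L, 8 genes on 3R and 4 genes on X. In the annotation 15 of the 30 share exon bases with another gene, as do 36.0% of protein-coding genes at 1 TPM or more. Each such neighbour lies on the opposite strand, and no label says whether the libraries keep strand, so reads of the pair may not have been separated. The longest shared stretches were 2003 bases between Mcm7 and asRNA:CR45871, which was not quantified here, and 1010 bases between Cdk2 and CG17267, which stood at 0.290 and 0.471 TPM. E2f2 shares 399 bases with Mpp6 at 14.4 and 14.1 TPM. Some neighbours were more abundant than the cell cycle gene itself. The gene aurA shares 153 bases with CG12213 at 27.4 and 31.1 TPM, and dup shares 158 bases with SRPK at 42.3 and 37.5 TPM. Each origin recognition gene of the 30 had such a neighbour. Orc2 shares 15 bases with rdx at 67.7 and 64.2 TPM, and Orc1 shares 105 bases with PIG-G at 8.74 and 9.25 TPM. Orc5 shares 95 bases with PolG2 at 12.4 and 13.7 TPM, and Orc6 shares 55 bases with Sting at 23.1 and 26.5 TPM. The quantified neighbours of Mcm3, Cdk2, E2f2 and Dp were less abundant than the cell cycle gene.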

How the data were processed

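RNA was sequenced from whole larvae of the third instar in 2 libraries of 1 group. The authors deposited, per the file headers, TPM and estimated counts for 30119 transcripts with their lengths. The columns are those salmon writes, but the quantifier, genome build and annotation are unnamed in the labels and headers. The submitters' processing notes list HTSeq 0.6.1, STAR 2.5.2, Picard, FastQC and bcl2fastq 2.18.0.12, with no roles. Of the transcripts, 29992 matched Ensembl release 115 (BDGP6) by identifier, with equal length for 99.8%; the rest, 0.0981% and 0.110% of reads, stayed out.

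For each gene, TPM and estimated counts were added over its transcripts. Counts were rounded for TMM factors (edgeR 4.0.16, R 4.3.3) and for Clopper-Pearson intervals of the ratios. Median-ratio size factors came from DESeq2 1.42.0. The calls were tested on simulated counts with counting error alone and no variation between libraries. That setting cannot show how often unchanged genes are called in these data. The genes described, their roles and the wider lists were chosen with earlier results of these data known. All 30 genes are named; of each wider list, the 2 most abundant and those with extreme ratios, plus partners chosen by role. Older symbols of 3 genes were matched through synonyms. Alternatives were other list choices, scalings, thresholds and filters.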

Additional observations from a re-analysis of the deposited data

How the results depend on the processing

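With only 2 libraries of one genotype, the variation among independent animals is unknown, and depth limits the origin recognition genes most (101 to 346 reads). No paired analysis was possible because both libraries analysed belong to one group. Each library alone gave 0.397 to 0.424 for the ratio of replication to mitotic medians and 0.871 to 0.984 for the ratio of sums. The ratio of medians, 0.411, became 0.442 with CycE, Cdk2, E2f1 and Dp added, 0.440 from reads per kilobase and 0.644 with the wider lists. The ratio of sums, 0.927, became 1.49, 0.911 and 0.730 under the same choices, 1.09 without CycA and 0.638 without PCNA, the last chosen after seeing the data. The count of 0 genes at least 2-fold apart held at 1.5-fold and 4-fold, under both read filters and both other scalings, and single transcripts gave 4. With library size alone every log2 ratio was 0.19 higher, so that the medians of replication and mitotic genes were 0.35 and 0.24 in place of 0.16 and 0.05. Mitotic members joined with the wider mitosis list gave 0.091. Every other alternative kept these medians within counting error. With DESeq2 size factors the log2 ratio of CycE went from 0.012 to -0.0044, leaving 25 of the 30 genes above 0 in place of 26.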

Other observations

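The dREAM complex, which joins Rbf or Rbf2, E2f2, Dp and Myb on the promoters of cell cycle genes, was measurable. The list of 8 genes used for it also holds tomb, which belongs to a related complex of the testis. All 8 reached 1 TPM in both libraries, with medians over the list of 14.2 and 14.5 TPM in replicates 1 and 2. The histone-binding subunit gene Caf1-55 stood at 51.7 ± 2.62 TPM and Myb at 29.4 ± 1.70 TPM (SD, n = 2). Rbf2 stood at 2.15 and 2.29 TPM, well below Rbf at 14.9 and 15.2 TPM. Of the 8 genes 5 had a log2 ratio above 0, replicate 2 over replicate 1, where 52.8% of all genes did. The ratios ran from -0.24 for mip130 to 0.34 for lin-52, and none reached 2-fold.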
